A study of Homo sapiens with 12 samples.

Results

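The genes described here are the SR proteins, the hnRNP proteins and their close relatives TRA2A, TRA2B and PTBP1 to PTBP3, which regulate pre-mRNA splicing. They were taken by name from the authors' table of expressed genes: every SRSF gene with a number, every HNRNP gene that is not a pseudogene, both TRA2 genes and the 3 PTBP genes. This gave 38 of 19460 genes, and all 38 were among the 15869 genes with a mean of at least 0.5 FPKM (read fragments scaled to transcript length and library size) that entered the test. T-47D, an established line of luminal, oestrogen receptor-positive breast cancer cells with a wild-type genotype label, was treated for 24 h with 1 µM palbociclib, an inhibitor of the cyclin-dependent kinases CDK4 and CDK6, or with the solvent DMSO. Poly(A) RNA-seq and ATAC-seq, which measures how open chromatin is, were each done on 3 biological replicates of both treatments. All groups share 1 cell line and 1 time, and all treated libraries 1 dose.

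SR proteins bind exonic sequences through RNA recognition motifs and recruit the spliceosome through arginine-serine-rich tails, usually favouring the use of an exon. Many hnRNP proteins, PTB among them, bind RNA near splice sites and often favour skipping, so the balance of both classes sets the choice of splice forms. The genes of both classes are known to control their own output, often through exons or introns that carry an early stop codon and send the mRNA to nonsense-mediated decay.

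The RNA of the luminal markers was high in all 6 libraries. Of the 9 luminal genes examined, 8 passed the test as higher after palbociclib, against 20.9% of all genes tested. The markers of other cell types summed to 25.8 to 26.6 FPKM after DMSO and to 26.6 to 29.3 FPKM after palbociclib, nearly all of it COL1A1, and neither of the 2 that could be tested passed. Of the leukocyte and endothelial genes only CD14 was in the table, at below 0.5 FPKM. The proliferation gene MKI67 fell from 30.8 to 1.62 FPKM and the E2F target CCNE2 from 31.8 to 1.61 FPKM. E2F1 also fell, from 31.5 to 3.34 FPKM, while CCND1, the other gene of this check, rose from 96.8 to 202.7 FPKM. The falls had the direction that inhibition of CDK4 and CDK6 is known for. In such bulk samples, less RNA per cell and fewer cells of 1 kind, for example cycling cells, cannot be told apart. The sum of the mean normalized counts over genes was 67212655, and the ATAC libraries held 12830062 to 18250496 counts in peaks.

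After palbociclib 24 of the 38 genes were lower and 2 were higher at an adjusted p under 0.05 (limma), and 12 did not pass. Over all genes tested, 22.9% were lower and 20.9% were higher, so that 26 members passed in either direction against 43.7% of all genes. The median log2 change of the 38 genes was -0.27, against 0.0023 over all genes tested. A fall of at least 0.5 on the log2 scale was called for 9 of the 38 genes, and for 7.7% of all genes. Among strongly expressed genes, with a mean of at least 50 FPKM, 19 of 29 members were lower, against 28.1% of all such genes. The libraries of the 2 treatments did not overlap for 30 of the 38 genes, against 54.7% of all genes. The FPKM of all 38 genes summed to 6623 ± 158 (SD, n = 3) after DMSO and to 5424 ± 144 (SD, n = 3) after palbociclib, or 81.9% of the DMSO sum.

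The summed level was lower after palbociclib in each family. The PTB genes summed to 73.1% of their DMSO level, the hnRNP A/B/D genes to 71.8%, the TRA2 pair to 79.1%, the K to U group to 85.5%, HNRNPC with HNRNPR to 87.1%, the F/H genes to 88.0% and the SR genes to 88.8%. These shares are sums of a few genes each, and the difference between families was not tested. In the authors' deposited table, made with DESeq2, 24 of the 38 genes were lower and 2 were higher at an adjusted p under 0.05, against 20.3% and 17.9% of all genes there. There, 25 genes had the call and direction given here.

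**Figure D1:**
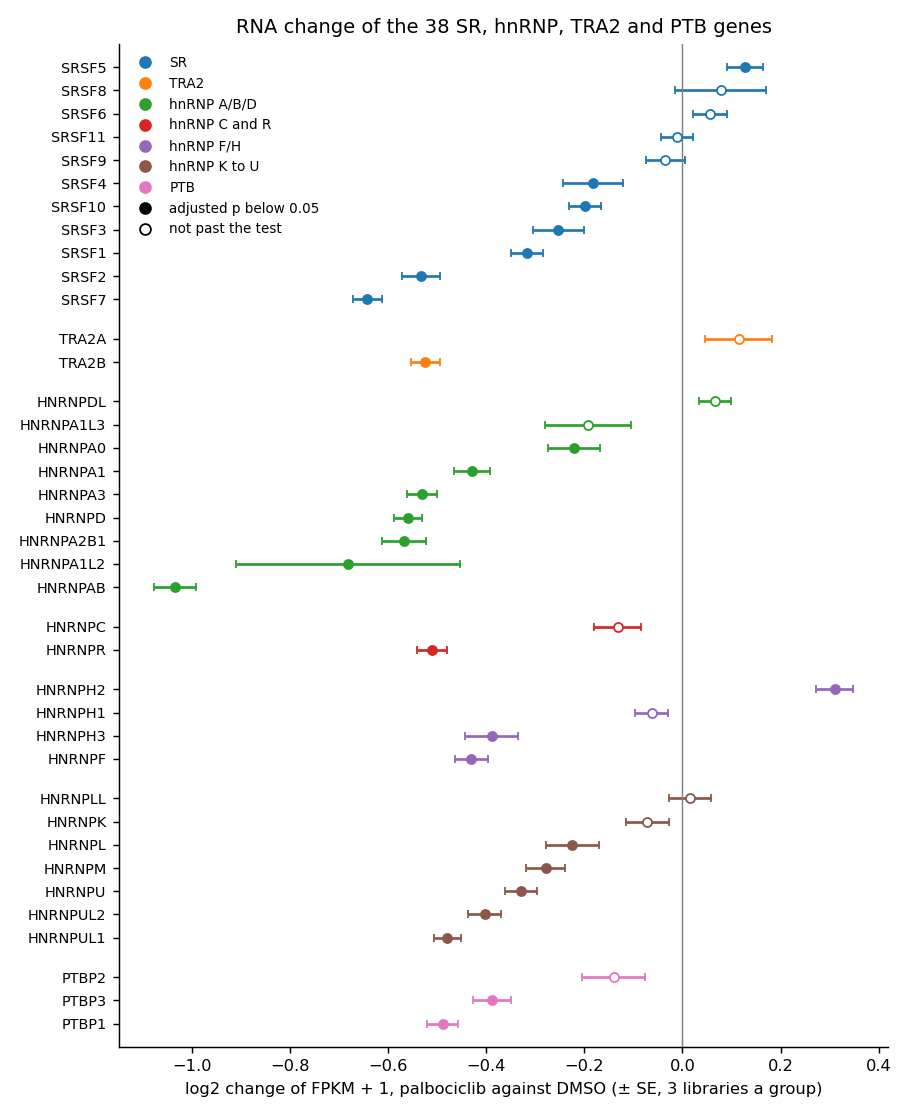
Log2 change of FPKM + 1 (palbociclib against DMSO, with its standard error from limma, 3 libraries per group) of the 38 genes, coloured and ordered by family. Filled points passed the test and open points did not: 24 of the filled points lie left of 0 and 2, SRSF5 and HNRNPH2, lie right of it.

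Start regions of 5 members are printed as examples, though members not printed, such as SRSF7, HNRNPA2B1 and HNRNPD, fell more than TRA2B. The printed regions are those of SRSF10 and HNRNPR, where accessibility fell, HNRNPAB and TRA2B, whose RNA fell strongly, and HNRNPH2, which rose. Each is the 250 bases before the RefSeq transcription start on GRCh38.p14, read 5′ to 3′ on the strand of the gene, ending 1 base before the start. Capitals mark matches on either strand to 4 words of the kind E2F factors bind (TTTCCCGC, TTTGGCGC, TTTGCCGC and TTTCGCGC), to the CCAAT box, to the ETS word CCGGAAGT and to the CHR word TTTGAA, a cell cycle element. A CCAAT box on the other strand reads ATTGG, and the E2F word of SRSF10 reads GCGGGAAA.
SRSF10, chr1:23980328-23980577, minus strand: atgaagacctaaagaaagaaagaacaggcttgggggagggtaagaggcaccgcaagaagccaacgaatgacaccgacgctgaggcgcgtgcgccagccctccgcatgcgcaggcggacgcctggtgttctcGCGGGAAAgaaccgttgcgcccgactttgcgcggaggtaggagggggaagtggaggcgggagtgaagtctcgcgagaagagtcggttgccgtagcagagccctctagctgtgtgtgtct
HNRNPR, chr1:23344285-23344534, minus strand: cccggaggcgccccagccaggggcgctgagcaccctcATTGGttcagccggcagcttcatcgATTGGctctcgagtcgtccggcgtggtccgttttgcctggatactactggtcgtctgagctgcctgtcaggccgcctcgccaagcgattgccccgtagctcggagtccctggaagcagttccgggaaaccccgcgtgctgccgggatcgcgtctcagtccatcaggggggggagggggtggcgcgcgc
HNRNPAB, chr5:178204283-178204532, plus strand: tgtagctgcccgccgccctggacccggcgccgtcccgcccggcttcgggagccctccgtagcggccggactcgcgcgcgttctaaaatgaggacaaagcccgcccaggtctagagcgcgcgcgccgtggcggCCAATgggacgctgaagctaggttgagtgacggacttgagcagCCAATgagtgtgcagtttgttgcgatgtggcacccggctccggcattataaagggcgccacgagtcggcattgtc
TRA2B, chr3:185938015-185938264, minus strand: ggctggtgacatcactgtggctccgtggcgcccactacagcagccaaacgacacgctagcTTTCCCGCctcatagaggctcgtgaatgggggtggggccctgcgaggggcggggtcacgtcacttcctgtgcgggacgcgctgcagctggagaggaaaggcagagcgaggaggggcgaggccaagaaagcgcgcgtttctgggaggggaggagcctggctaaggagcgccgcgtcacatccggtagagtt
HNRNPH2, chrX:101407972-101408221, plus strand: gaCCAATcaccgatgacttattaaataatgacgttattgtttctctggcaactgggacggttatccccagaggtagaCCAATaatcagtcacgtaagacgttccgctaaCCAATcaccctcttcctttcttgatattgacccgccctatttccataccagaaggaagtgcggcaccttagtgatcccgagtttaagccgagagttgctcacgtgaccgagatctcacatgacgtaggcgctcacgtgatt

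Of the 11 SR genes, 6 fell, 1 rose and 4 did not pass. The strongest fall was that of SRSF7, an SR protein with a zinc knuckle that shuttles and also acts in mRNA export. SRSF7 measured 103.4, 100.2 and 102.8 FPKM after DMSO and 66.3, 65.1 and 64.0 FPKM after palbociclib. All 3 treated libraries lay far below all 3 controls, with a log2 change of -0.64 (SE 0.03, adjusted p 7.84e-07). SRSF2, a founding SR protein known as SC35, measured 236.5, 233.2 and 251.0 FPKM after DMSO and 168.2, 169.6 and 159.4 FPKM after palbociclib. Its groups were as clearly apart, and the log2 change was -0.53 (SE 0.04, adjusted p 1.3e-05).

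SRSF1, the best known SR protein and a proto-oncogene, fell from 204.5 ± 5.37 to 163.9 ± 4.32 FPKM (SD, n = 3), a log2 change of -0.32 (adjusted p 1.15e-04). SRSF3, the smallest SR protein, fell by 0.25 on the log2 scale (adjusted p 0.00477), and SRSF10, an SR-like protein regulated by dephosphorylation, fell by 0.20 (adjusted p 0.00157). SRSF4 fell by 0.18 with an adjusted p of 0.0409. That call was lost without any 1 of the DMSO libraries, without palbociclib replicate 2 or without replicate 3, at adjusted p of 0.0736 to 0.104.

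SRSF5, an SR protein first found as a gene induced by insulin, was the member that rose in this family. It measured 238.1, 218.7 and 224.1 FPKM after DMSO and 243.1, 249.6 and 251.3 FPKM after palbociclib. The treated libraries lay above the controls by a small margin, with a log2 change of 0.13 (SE 0.04, adjusted p 0.0227). The call was lost without DMSO replicate 2 or 3 or without palbociclib replicate 2 or 3, with adjusted p between 0.0581 and 0.0828. SRSF6, SRSF8, SRSF9 and SRSF11 did not pass, with log2 changes of 0.06, 0.08, -0.04 and -0.01. SRSF8 measured 15.6, 12.6 and 11.6 FPKM after DMSO, and passed only without the first of these libraries (log2 change 0.19, adjusted p 0.0398).

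TRA2A and TRA2B are SR-like activators that bind GAA-rich exonic sequences, and of these TRA2B passed the test. TRA2B measured 169.0, 164.4 and 170.4 FPKM after DMSO and 115.3, 118.2 and 115.9 FPKM after palbociclib. It fell by 0.52 on the log2 scale (SE 0.03, adjusted p 2.15e-06), with no overlap of the groups. TRA2A measured 53.5, 60.2 and 53.7 FPKM after DMSO and 54.8, 63.5 and 63.5 FPKM after palbociclib. Its groups overlapped, and the log2 change of 0.12 did not pass (adjusted p 0.208), although it did without palbociclib replicate 1 (0.19, adjusted p 0.0395). The difference between the paralogs was not tested.

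The hnRNP A/B/D proteins are abundant proteins with paired RNA recognition motifs that often act as splicing silencers. Of these 9 genes, 7 fell and 2 did not pass. HNRNPAB, which encodes the CArG box-binding factor, had the largest change of the 38 genes on the log2(FPKM + 1) scale. As a plain ratio, the low and uncertain HNRNPA1L2 was at a smaller share of its DMSO mean (39.3%). HNRNPAB measured 155.8, 150.7 and 158.3 FPKM after DMSO and 76.8, 78.2 and 70.6 FPKM after palbociclib. The treated mean was 48.5% of the DMSO mean and no libraries overlapped, with a log2 change of -1.03 (SE 0.04, adjusted p 3.37e-07). HNRNPA2B1, one of the most abundant members, measured 706.8, 656.0 and 694.1 FPKM after DMSO and 485.8, 463.0 and 438.6 FPKM after palbociclib. The lowest control exceeded the highest treated library by a wide margin, and the log2 change was -0.57 (SE 0.05, adjusted p 2.15e-05).

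HNRNPD, also known as AUF1, binds AU-rich elements and promotes mRNA decay. It measured 170.0, 165.6 and 172.9 FPKM after DMSO and 114.8, 115.1 and 114.2 FPKM after palbociclib. The treated libraries were nearly equal and all below the controls (log2 change -0.56, SE 0.03, adjusted p 1.41e-06). HNRNPA3, a close relative of HNRNPA1 and HNRNPA2B1, measured 230.4, 227.1 and 234.3 FPKM after DMSO and 162.9, 155.7 and 159.3 FPKM after palbociclib. Its groups did not overlap either (log2 change -0.53, SE 0.03, adjusted p 2.43e-06).

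HNRNPA1, a silencer that competes with SRSF1 on many exons, fell from 650.7 ± 28.3 to 482.8 ± 3.92 FPKM (SD, n = 3), a log2 change of -0.43 (adjusted p 2.97e-05). HNRNPA0 fell by 0.22 (adjusted p 0.00974). HNRNPA1L2 is a near-identical copy of HNRNPA1, so that reads can be shared between them, and its value is uncertain. It was listed at 1.70, 1.12 and 1.42 FPKM after DMSO and at 0.753, 0 and 0.916 FPKM after palbociclib. It was called lower (log2 change -0.68, SE 0.23, adjusted p 0.0408), but without any 1 of the DMSO libraries its adjusted p was 0.0547 to 0.112, and in the authors' deposited table its adjusted p was 0.576. HNRNPA1L3, another copy, did not pass (log2 change -0.19). HNRNPDL, a paralog of HNRNPD, measured 187.6, 183.7 and 188.4 FPKM after DMSO and 201.9, 195.3 and 189.3 FPKM after palbociclib. These treated libraries lay just above the controls, and the log2 change of 0.07 did not pass (adjusted p 0.133).

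HNRNPC, which binds uridine tracts and keeps cryptic exons out of mRNA, measured 386.6, 364.0 and 368.5 FPKM after DMSO and 357.6, 347.1 and 317.3 FPKM after palbociclib. The treated libraries were lower without overlap, but the log2 change of -0.13 missed the threshold (adjusted p 0.0531). It passed without palbociclib replicate 1 (adjusted p 0.032) and in the authors' deposited table (adjusted p 0.0215). It also passed among genes averaging at least 5 FPKM (adjusted p 0.0383) and with the replicate number as a block (adjusted p 0.0302). In all other alternatives it missed the threshold. HNRNPR, a relative of SYNCRIP that binds mRNA in nucleus and cytoplasm, measured 90.8, 89.6 and 93.1 FPKM after DMSO and 64.9, 63.8 and 62.6 FPKM after palbociclib. It fell clearly, by 0.51 on the log2 scale (SE 0.03, adjusted p 4.17e-06).

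The F/H proteins bind G-rich sequences, and their genes went in both directions. HNRNPH2, which lies on the X chromosome and encodes a protein very close to HNRNPH1, measured 56.5, 55.4 and 59.6 FPKM after DMSO and 72.4, 71.7 and 69.2 FPKM after palbociclib. It rose in every treated library, by 0.31 on the log2 scale (SE 0.04, adjusted p 2.82e-04), the largest rise among the 38 genes. HNRNPF measured 233.2, 228.1 and 242.4 FPKM after DMSO and 175.9, 175.7 and 169.8 FPKM after palbociclib. It fell without overlap (log2 change -0.43, SE 0.03, adjusted p 1.71e-05). HNRNPH3 fell by 0.39 (adjusted p 5.99e-04), and HNRNPH1, the most abundant of the family at 424.1 ± 12.4 FPKM after DMSO, did not pass (log2 change -0.06, adjusted p 0.173).

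In the group from HNRNPK to HNRNPUL2, 5 of 7 genes fell. HNRNPUL1, an HNRNPU-like protein also known for a role in DNA end resection, measured 85.2, 85.8 and 86.1 FPKM after DMSO and 61.4, 61.9 and 60.3 FPKM after palbociclib. The libraries of each group were nearly equal, and the log2 change was -0.48 (SE 0.03, adjusted p 3.53e-06). HNRNPUL2 fell by 0.40, HNRNPU, which binds nuclear matrix and chromatin-associated RNA, by 0.33, HNRNPM by 0.28 and HNRNPL, which binds CA repeats, by 0.22. HNRNPK, which binds C-rich RNA through KH domains, did not pass (log2 change -0.07). HNRNPLL, a paralog of HNRNPL, measured 23.1, 22.1 and 23.9 FPKM after DMSO and 24.0, 22.7 and 23.2 FPKM after palbociclib. These groups overlapped, with a log2 change of 0.02 (adjusted p 0.803).

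PTBP1, the polypyrimidine tract-binding protein of non-neuronal cells, measured 119.3, 115.8 and 115.3 FPKM after DMSO and 81.2, 84.4 and 83.3 FPKM after palbociclib. It fell by 0.49 on the log2 scale (SE 0.03, adjusted p 4.85e-06), with every treated library below every control. PTBP3 fell by 0.39 (adjusted p 9.49e-05). PTBP2, the paralog best known from neurons and restrained by PTBP1, measured 5.98, 6.45 and 6.22 FPKM after DMSO and 5.67, 5.13 and 5.86 FPKM after palbociclib. Its treated libraries were slightly lower without overlap, but the log2 change of -0.14 did not pass (adjusted p 0.109).

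**Figure D2:**
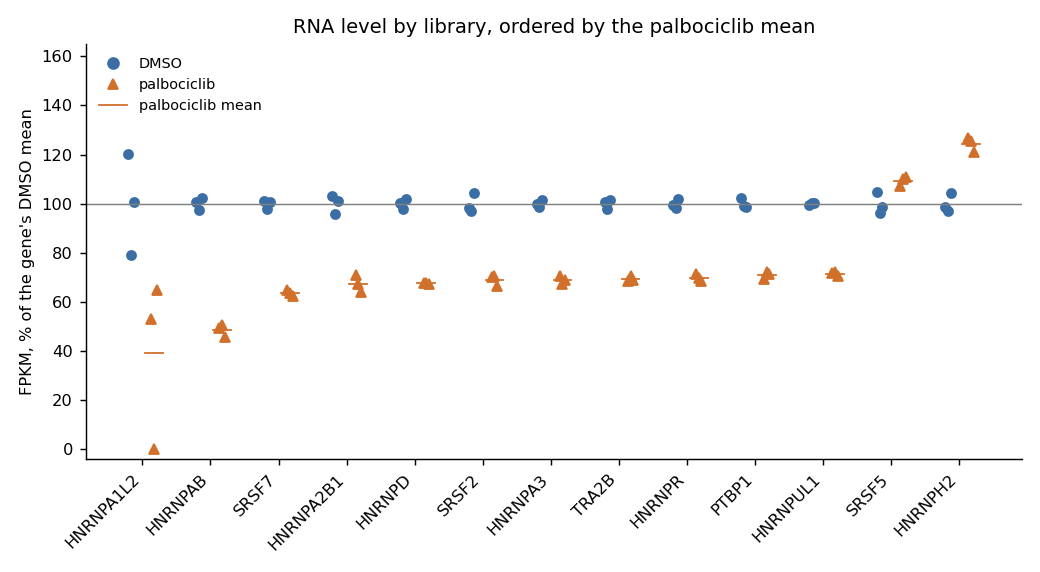
FPKM of each library as a percentage of the gene's DMSO mean, for the genes with a called change of at least 0.5 on the log2 scale together with PTBP1, HNRNPUL1, SRSF5 and HNRNPH2. Circles are DMSO libraries, triangles palbociclib libraries and short lines palbociclib means: HNRNPAB stands at 48.5%, most others lie near 70%, HNRNPH2 is at 124.4%, and HNRNPA1L2 spreads widely.

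Other genes that act with these proteins were counted from lists, to be read against the 20.9% of all genes that were higher and the 22.9% that were lower. Among kinases and the importin that phosphorylate or carry SR proteins, 3 of 7 tested genes rose and 2 fell. CLK3, a nuclear kinase of SR proteins, rose from 33.2 ± 0.568 to 44.8 ± 3.79 FPKM (SD, n = 3), a log2 change of 0.42 (adjusted p 6.05e-04). CLK2 and CLK4 also rose, by 0.13 and 0.15, while SRPK1, the cytoplasmic SR kinase, and TNPO3, the SR importin, fell by 0.20 and 0.22. Of 33 other splicing regulators 8 rose and 19 fell, with a median log2 change of -0.20. RBMX, also called hnRNP G, fell by 0.43 and RAVER1, a PTB partner, by 0.54, whereas MBNL2, a muscleblind-like factor, rose by 0.46 and SRRM2, a scaffold of nuclear speckles, by 0.24. Of 14 genes of nonsense-mediated decay and the exon junction complex 1 rose and 8 fell, RBM8A by 0.40 and UPF1, the central helicase, by 0.19.

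The splicing of the same genes was read from counts of inclusion and skipping reads per event, a comparison made within each gene. The 5 event tables held 712 events in 33 of the 38 genes, and 198 of these could be tested, with 20 or more reads per library on average and 5% or more of the reads on the rarer form. The inclusion level is the share of transcripts with the exon, intron or longer exon form, after the authors' correction for the length of the 2 forms. At an adjusted p under 0.05 (edgeR quasi-likelihood test) 11 of the 198 events changed, or 5.56%, against 0.35% of the 37445 events tested in all genes. Inclusion was higher in 8, against 0.246% of all events, and lower in 3, against 0.104%. The authors' deposited FDR was under 0.05 for 15 of the 198 events, 10 of them among these 11, against 3.82% of all events tested. With no condition on the rarer form, 8 of the 11 calls were lost, at adjusted p of 0.136 to 0.763, and those of the SRSF7 intron, the HNRNPA2B1 intron and the HNRNPA2B1 exclusive pair were kept. The 11 events lay in 6 genes: SRSF3, SRSF6, SRSF7, HNRNPH1, HNRNPA2B1 and HNRNPA1. Events of 1 gene can overlap and share reads, so these shares do not count independent events. HNRNPA2B1 had 25 tested events and 3 calls, and HNRNPH1 17 and 3. The share of all genes with a called event was not counted.

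Read depth moved with this result. The member events had a median of 2750 reads per library, against 178 for all events. Among events with at least 500 reads, 11 of 160 member events were called, against 1.14% of all such events. This floor does not make the depth of both sets alike, and events matched for depth were not compared. An unadjusted p under 0.05 was found for 25.8% of the member events, 35 with higher and 16 with lower inclusion, against 8.53% of all events. The groups did not overlap for 61 of the 198 events, against 13.3% of all events. Retained introns gave 4 calls among 28 events, against 1.4% of all retained introns, and cassette exons 5 among 59, against 0.312%. Alternative 5′ splice sites gave 1 call among 17, against 0.417%, and mutually exclusive exons 1 among 74, against 0.0304%. None of the 20 alternative 3′ splice sites passed with edgeR, against 0.278% of all such events, while 3 had an unadjusted p under 0.05. With DESeq2 none of these passed and with the authors' deposited FDR 1 did.

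The 3 SR genes with changed events are known from the literature to hold a poison exon, an exon with an early stop codon whose inclusion sends the mRNA to decay. The sequences of these exons were not examined here, so whether they carry stop codons was not read from these data. The coordinates are on GRCh38. In SRSF7 the retained intron at chr2:38748654-38749528 (875 bases, minus strand) was included at 12.3%, 12.9% and 12% after DMSO and at 17.8%, 18.4% and 17.3% after palbociclib. All treated libraries were higher, by 5.43 percentage points on average, with an adjusted p of 2.22e-05, the lowest of all member events. It stayed past the threshold without any 1 of the 6 libraries, at most at an adjusted p of 9.59e-04.

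Inside that intron lies the SRSF7 cassette exon at chr2:38748898-38749346 (449 bases). Its inclusion was 8.8%, 9.3% and 8.1% after DMSO and 13.2%, 12.6% and 13.0% after palbociclib. The groups were apart by 4.20 points (adjusted p 0.0295). Both events were set against the same skipping reads, 1280, 1629 and 1175 in the DMSO libraries, so they are not independent. Reads on the body of this exon can also count towards the intron, which had 1772 inclusion reads in DMSO replicate 1, against 685 for the exon. How much of the intron's rise lies in the exon was not tested. The exon's call was lost without any 1 of the 6 libraries, at adjusted p of 0.0509 to 0.142.

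SRSF6, whose total RNA did not pass the test, had the largest rise in inclusion. Its cassette exon at chr20:43459153-43459420 (268 bases, plus strand) was included at 53.6%, 55.9% and 53.6% after DMSO and at 68.5%, 65.7% and 63.7% after palbociclib. Inclusion rose by 11.6 points without overlap (adjusted p 0.00542), and the adjusted p was 0.0754 without palbociclib replicate 2. In SRSF3 the cassette exon at chr6:36599821-36600276 (456 bases, plus strand) was included at 8.2% in each DMSO library and at 11.7%, 11.6% and 10.7% after palbociclib. The rise of 3.13 points passed (adjusted p 0.0234), but without any 1 of the DMSO libraries, or without palbociclib replicate 1 or 2, the adjusted p was 0.0673 to 0.155.

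HNRNPH1, whose total RNA did not pass either, had 3 events with higher inclusion. Its cassette exon at chr5:179621843-179621976 (134 bases, minus strand) was included at 5.2%, 5.1% and 4.6% after DMSO and at 7.9%, 7.7% and 10.3% after palbociclib. The treated libraries were all higher (adjusted p 0.00297), and the call held without any 1 of the 6 libraries but not without the condition on the rarer form (adjusted p 0.763). The intron at chr5:179621036-179621241 (206 bases) was retained at 12.4%, 12.1% and 11.8% after DMSO and at 14.9%, 14.1% and 15.7% after palbociclib. The groups did not overlap (adjusted p 0.0241). Of all the called events, this is the only one whose FDR in the authors' rMATS tables, 0.0863, was not under 0.05. The intron at chr5:179616219-179617020 (802 bases) was retained at 49.9%, 55.4% and 52.4% after DMSO and at 60.4%, 60.5% and 59.3% after palbociclib. This rise of 7.5 points had an adjusted p of 0.0316. Each of both intron calls was lost in 5 of the 6 fits that left out 1 library: all but the one without palbociclib replicate 2 for the shorter intron (adjusted p up to 0.114 in the others), and all but the one without DMSO replicate 2 for the longer intron (up to 0.215).

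HNRNPA2B1 had events in both directions that lie next to each other. The intron at chr7:26192339-26192494 (156 bases, minus strand) was retained at 12.8%, 13.7% and 13.0% after DMSO and at 15.2%, 16.7% and 18.0% after palbociclib. Retention rose by 3.47 points (adjusted p 7.49e-04), and this call held without any 1 of the 6 libraries. The adjoining cassette exon at chr7:26192301-26192338 (38 bases) was included at 79.6%, 80.3% and 79.9% after DMSO and at 74.1%, 71.6% and 70.9% after palbociclib. Inclusion fell by 7.73 points without overlap (adjusted p 0.0419). The same 38 bases form an exclusive pair with the exon at chr7:26191422-26191650 (229 bases), and the level of this pair fell from 80.4% ± 1.5 to 75.0% ± 2.74 (SD, n = 3, adjusted p 0.0279). The cassette exon and the exclusive pair share inclusion reads, 1680 in DMSO replicate 1.

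These falls kept their direction when 1 library was left out, with a log2 odds change between -0.69 and -0.57 for the cassette exon and between -0.53 and -0.33 for the pair, but not always the call. The cassette exon passed only without palbociclib replicate 1, with adjusted p of 0.0885 to 0.218 in the other 5 such fits. The exclusive pair did not pass without DMSO replicate 1 or 3 or palbociclib replicate 3, at 0.121 to 0.133. In HNRNPA1, the 4 bases at chr12:54284318-54284321 (plus strand) that separate a pair of alternative 5′ splice sites were included at 67.3%, 65.3% and 66.0% after DMSO and at 53.8%, 54.0% and 56.2% after palbociclib. The mean of the longer form was 11.5 points lower and the groups did not overlap (adjusted p 0.0152). It passed only without palbociclib replicate 3, with adjusted p of 0.0503 to 0.115 when any other library was left out.

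**Figure D3:**
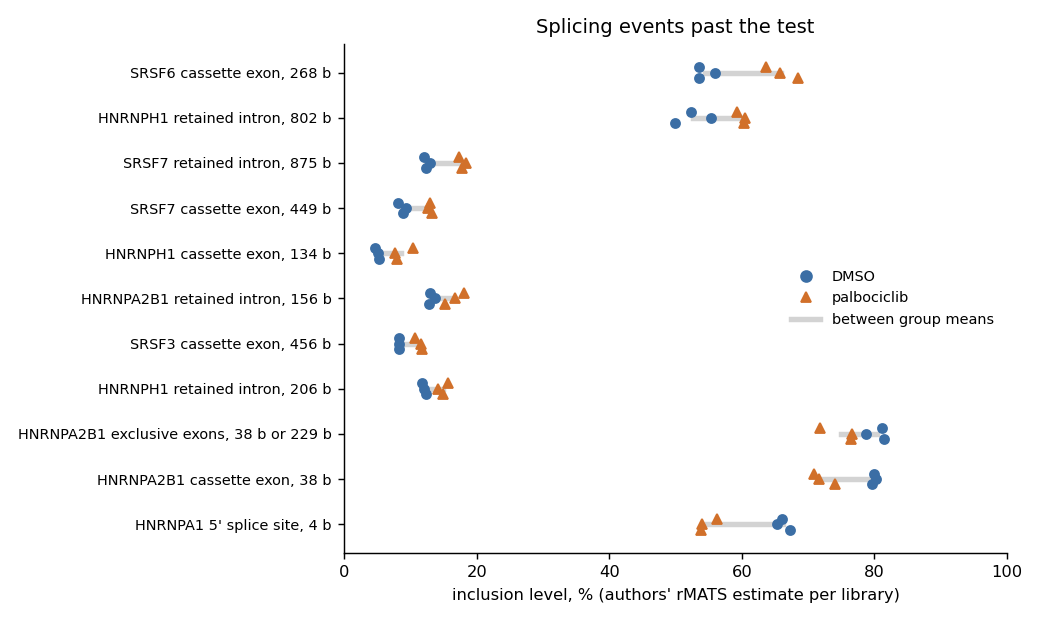
Inclusion level in percent, as the authors' rMATS tables give it, for the 11 member events past the test, with circles for DMSO and triangles for palbociclib libraries and a grey bar between the group means. The bar is longest for SRSF6 (54.4% to 66.0%) and for the HNRNPA1 5′ splice site (66.2% to 54.7%), and the groups do not overlap in any of the 11 events.

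No event of the TRA2, HNRNPC and HNRNPR, K to U or PTB genes passed with edgeR, among 76 tested. Of these 13 had an unadjusted p under 0.05, 9 of them in HNRNPC or HNRNPR, none passed with DESeq2 and 2 with the authors' FDR. Cassette exons with the most reads in their family were also read. In HNRNPH1 this was the exon at chr5:179615546-179615595 (50 bases), included at 86.9% ± 0.69 after DMSO and 88.4% ± 1.1 after palbociclib (SD, n = 3, adjusted p 0.619). The TRA2B exon at chr3:185931577-185931852 (276 bases), by its length the known poison exon of that gene, was included at 27.7%, 23.9% and 27.2% after DMSO and at 23.8%, 24.1% and 25.4% after palbociclib. The groups overlapped (adjusted p 0.859), while the gene's RNA fell. In HNRNPK the exon at chr9:83973902-83973973 (72 bases) was included at 90.5% ± 1.48 after DMSO and 92.6% ± 0.85 after palbociclib (SD, n = 3, adjusted p 0.193). The HNRNPC exon at chr14:21263311-21263336 (26 bases) measured 84.0% ± 1.5 and 80.1% ± 3.24 (SD, n = 3, adjusted p 0.281), and the PTBP3 exon at chr9:112275844-112276013 (170 bases) 87.1% ± 2.27 and 85.7% ± 3.67 (SD, n = 3, adjusted p 0.929).

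A pair of well known exons was also read. In HNRNPA2B1 the 36-base exon at chr7:26197831-26197866, which by its length distinguishes the B1 from the A2 protein, was included at 16.7% ± 0.60 after DMSO and 17.8% ± 0.46 after palbociclib (SD, n = 3, adjusted p 0.759). In PTBP1 the 34-base exon at chr19:807869-807902, whose skipping is known to lead to decay, was included at 98.3%, 99.3% and 98.7% after DMSO and at 97.5%, 97.1% and 96.5% after palbociclib. The treated libraries were lower without overlap, on 14, 9 and 9 skipping reads against 15, 21 and 25. This exon was not tested because its minor form had under 5% of reads, and it was picked after its values were seen. The authors' deposited FDR for it was 0.00327, and its adjusted p without the minor-form condition was 0.763.

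Accessibility was measured in 12 peaks within 1 kb of a start of 11 members. It was lower in 2 peaks, against 11.3% of the 7349 peaks at starts of all genes and 6.46% of all peaks, and higher in 0 with edgeR (adjusted p), against 1.81%. DESeq2 also called 0 higher, and 0 of the 12 had an unadjusted p under 0.05 with higher counts. The log2 change was below 0 in 11 of the 12 peaks, or 91.7%, against 67.0% of all start peaks. When scaled by library totals alone it was below 0 in 9 of the 12. The share of all start peaks was not computed with that scaling. The median was -0.08, against -0.05 for all start peaks.

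The peak over the SRSF10 start, chr1:23979931-23980872, held 84.3, 90.9 and 91.5 CPM (counts scaled to TMM-adjusted library sizes) after DMSO and 68.6, 65.6 and 68.3 CPM after palbociclib. All treated libraries were lower, with a log2 change of -0.40 (edgeR, adjusted p 3.57e-07), and the RNA of SRSF10 fell by 0.20. The SRSF10 start sequence printed above, which lies whole within this peak, holds 1 E2F word, beginning 119 bases before the start. The peak over the HNRNPR start, chr1:23343878-23344934, held 155.1, 144.9 and 156.1 CPM after DMSO and 130.7, 139.2 and 127.8 CPM after palbociclib. It was lower without overlap (log2 change -0.20, adjusted p 0.00368), and the HNRNPR start sequence within it holds 2 CCAAT boxes and no E2F word. Most members had no peak within 1 kb of a start, since 11 of the 37 with a known start had one. HNRNPAB and SRSF7, whose RNA fell strongly, were among those without. Over all genes, 29744 had a known start, and 7349 peaks lay within 1 kb of any start. The share of all genes with such a peak was not counted. A missing peak means only that the authors' peak set held none there, and it was not read as closed chromatin.

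The other 10 peaks did not pass, among them the strongest, at HNRNPC, with 168.0 ± 1.48 CPM after DMSO and 155.7 ± 5.89 CPM after palbociclib (SD, n = 3, adjusted p 0.117). At HNRNPD, whose RNA fell by 0.56, the peak measured 138.4 ± 4.97 and 135.2 ± 5.21 CPM (SD, n = 3, adjusted p 0.723). At HNRNPU and HNRNPUL1, both lower in RNA, the log2 changes in accessibility were -0.01 and -0.05. The HNRNPUL1 peak lies at the most upstream of that gene's RefSeq start windows. No peak lay within 1 kb of its other starts, among them the start whose window holds the E2F word. The HNRNPD peak also lies within 1 kb of a start of another gene, HNRNPD-DT, so it may not belong to HNRNPD alone.

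**Figure D4:**
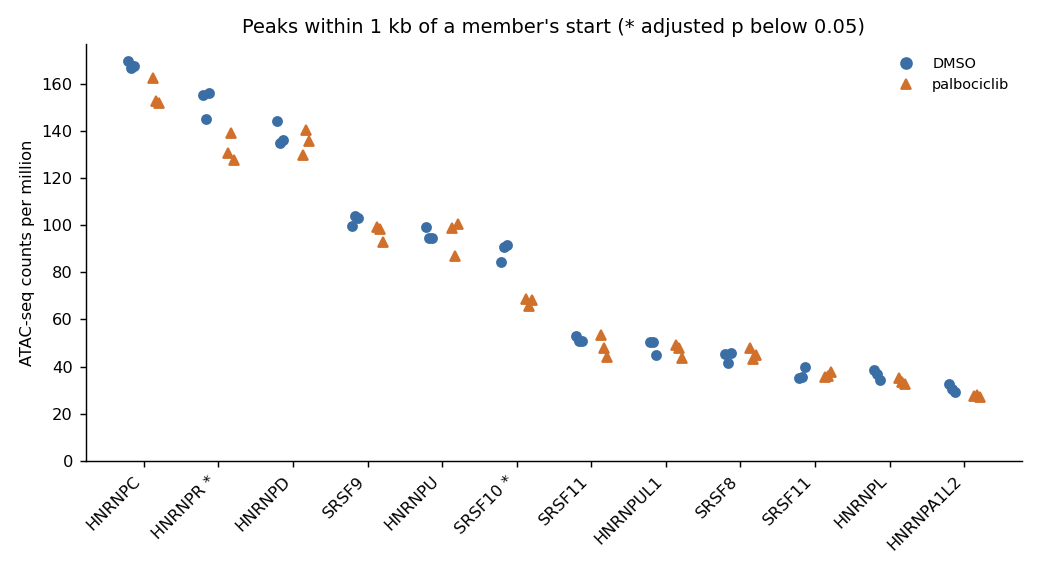
ATAC-seq CPM of each library (circles DMSO, triangles palbociclib) for the 12 peaks within 1 kb of a member's start, ordered by the DMSO mean, with an asterisk where the adjusted p was below 0.05. SRSF10 is the peak with the clearest gap, from 88.9 to 67.5 CPM, and most other peaks overlap between treatments.

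RefSeq start regions were found for 34 of the 38 members, in 49 windows of 250 bases, and not for HNRNPA1, SRSF2, TRA2A and HNRNPA1L3. An E2F word lay in 7 of these windows (14.3%), against 2.79% of the 35116 windows of all genes. The windows of all genes were not matched to the member windows for base composition or expression of the gene. The 7 genes were SRSF10, TRA2B, HNRNPA3, HNRNPK, HNRNPLL, HNRNPUL1 and PTBP1. Of these, SRSF10, TRA2B, HNRNPA3, HNRNPUL1 and PTBP1 fell and HNRNPK and HNRNPLL did not pass, while 24 of all 38 members fell. HNRNPK, HNRNPUL1 and PTBP1 also have start windows without the word. Whether the word goes with a fall was not tested. The TRA2B sequence printed above holds its word 190 bases before the start. The CCAAT box lay in 44.9% of the member windows and 32.0% of all windows, the ETS word in 6.12% and 3.42%, and the CHR word in 8.16% and 13.3%. HNRNPAB, which fell strongly, has 2 CCAAT boxes and HNRNPH2, which rose, has 3, and neither sequence has an E2F word. SRSF7, HNRNPA2B1 and HNRNPD, which also fell strongly, have no E2F word in their windows either. These are matches of letters, and binding was not measured.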

How the data were processed

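RNA-seq and ATAC-seq libraries of T-47D cells were grouped by the labels, 3 per treatment and assay. Nothing in the labels says that the RNA replicates came from separate cultures, so p-values measure the spread between these libraries. The 38 members, the lists and the motifs were chosen with earlier results of these data known.

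The authors deposited FPKM per gene and library, and a DESeq2 table with a mean normalized count (a signal), a log2 fold change, a Wald score and, per the file headers, p-values with their adjusted form. The submitters' processing notes name fastp 0.23.2, Salmon 1.10.2, STAR 2.7.10b and DESeq2 1.44.0 for RNA, and Bowtie2 2.5.4-6, Picard 3.4.0-0, MACS3 3.0.3-0 and featureCounts for ATAC, on GRCh38. The splicing tables, deposited by the authors, hold read counts per event on junctions and exon bodies, inclusion fractions, their difference (a score) and FDR values (p-values) from rMATS, whose version is not given in the sources used here. The ATAC table, deposited by the authors, gives read counts per peak on deduplicated alignments, per the file header.

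In R 4.3.3, limma 3.58.1 compared log2(FPKM + 1) with its trend option for genes averaging 0.5 FPKM or more, so a fold change understates that of low genes. FPKM are not counts, and no depth per library is given for them. Events were compared with edgeR 4.0.16 (quasi-likelihood) with a term per library, inclusion, and inclusion by treatment, per event type. Peak counts were compared with edgeR after TMM scaling, and filterByExpr removed 0 peaks. Benjamini-Hochberg adjustment ran over all genes, all events of a type or all peaks, with a threshold of 0.05. Each test was also run on simulated data with known changes. Its noise was set by choice and its events were drawn independently, unlike events that share reads. The outcome is not given here, so it lends the calls no weight. For mutually exclusive exons of a minus-strand gene, rMATS counts the exon with the higher coordinates as included.

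Values in every library are given for members called with a log2 change of at least 0.5 and for the largest rise and fall of each family. Events named are all those called, the deepest cassette exon of each family, and a PTBP1 exon picked after its values were seen. Gene starts came from RefSeq on GRCh38.p14, and 37 members had one. Alternatives were other pseudocounts, filters, scalings and tools, a replicate block, and leaving out each library. The replicate numbers were not taken as pairs.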

Additional observations from a re-analysis of the deposited data

How the results depend on the processing

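No called result changed direction. The uncalled RNA changes of SRSF8, SRSF9, SRSF11 and HNRNPLL and the uncalled peaks of HNRNPU, HNRNPUL1, SRSF8 and SRSF11 were near 0 and changed sign in some alternatives. The count of 24 lower and 2 higher genes became 4 higher with quantile normalization and 1 higher without the intensity trend, and was 22 to 25 lower and 1 to 3 higher when 1 library was left out. Over genes and alternatives, 462 results kept their side of the threshold, 22 calls were lost and 8 were gained, mostly for SRSF4, SRSF5, HNRNPA1L2 and HNRNPC. The count of 8 events with higher and 3 with lower inclusion became 13 and 5 when events averaging 5 reads were let in, and 3 and 1 with no filter on the minor form. It held 0 lower with DESeq2 and 5 lower with adjustment over all 5 event types. Without 1 library there were 4 to 6 higher and 0 to 2 lower. The cause was not tested. The calls of 3 events (SRSF7 and HNRNPA2B1 introns and the HNRNPH1 cassette exon) held without each library in turn. Within 5 kb of starts 1 peak was higher. Without 1 ATAC library there were 2 lower and 0 higher.

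With the replicate number as a block there were 24 lower and 2 higher genes, 15 higher and 7 lower events, and 2 lower and 0 higher peaks. The labels do not say that numbers pair libraries. Deviations of same-numbered libraries correlated at 0.106, -0.005 and 0.088 for RNA, 0.007, 0.001 and 0.018 for splicing, and 0.006, 0.042 and -0.028 for ATAC.

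All 11 called events had a mean of at least 500 reads. HNRNPA1L2 shares sequence with HNRNPA1. Stop codons in the named exons were not read, as no genome was used here.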
